A study of Mus musculus with 7 samples.

Results

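In the mouse hematopoietic progenitor line HPC7, 37 of 46 genes of innate immune sensing and signalling carried an open chromatin region (OCR) at a start site in all 7 bulk ATAC-seq libraries. The genes were chosen by name and fall into 5 groups: 12 toll-like receptors, 5 nucleic acid sensors with their adaptors, 11 genes of the inflammasome and the NOD-like receptors, 11 adaptors and kinases, and 7 genes of the NF-kappaB group with its target Tnf. They are 46 of the 21938 protein-coding genes of the GENCODE M21 annotation (mm10). ATAC-seq uses the Tn5 transposase to cut accessible DNA, and a peak of cuts is an OCR. The samples, HPC7-1, -2, -4, -5, -6, -7 and -8, are labelled as replicates of 1 group, come from independent culture batches, and were grown in medium with stem cell factor. HPC7 is 1 cell line, with no added genotype or agent in the sample labels. Names of single peaks start with VD in the lists of HPC7-1, -2 and -4, and with EtOH in those of HPC7-5 to -8. These prefixes do not occur in the labels and were not used as groups, so whether the cultures were handled alike is not known here.

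Toll-like receptors recognise microbial products at the cell surface or in endosomes, and helicases such as Ifih1 and Ddx58 recognise viral RNA in the cytosol. The adaptors Myd88, Ticam1, Mavs and Tmem173 pass these signals to kinases of the Irak and Tbk1 families and to the NF-kappaB and interferon regulatory (IRF) transcription factors. Inflammasome proteins activate caspase-1, which matures the cytokines Il1b and Il18. Hematopoietic progenitors are known to carry some of these receptors and to respond to microbial products through them.

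An OCR was assigned to a gene's promoter when it overlapped a window of 1 kb on either side of any annotated start site of the gene. Peak intensity is the fold enrichment over background that the peak caller MACS2 lists at the summit, and the strongest promoter OCR was taken in each library. Every OCR that lay in the gene body or within 10 kb of it, but outside that window, was counted as another OCR of the gene. Libraries held between 84593 and 132852 OCRs. The median promoter OCR over all genes had a fold enrichment between 55.1 in HPC7-6 and 92.0 in HPC7-5. HPC7-6 was accordingly the lowest library for 33 of the 37 members, while the highest was HPC7-1 for 11, HPC7-5 for 10, HPC7-8 for 10 and HPC7-4 for 6. The labelled cell type was checked on marker genes. All 8 hematopoietic progenitor markers had a promoter OCR in every library, with mean intensities from 52.2 at Gata2 to 266 at Lyl1. Neither the B cell markers Cd79a and Pax5 nor the T cell markers Cd3e, Cd3g and Cd4 had one in any library. Of 5 macrophage or monocyte markers, Adgre1 had none, and the others ranged from 4.85 at Csf1r to 46.4 at Cd68. Of 3 erythroid markers, Epor had one in all libraries at a mean of 117, Alas2 in 3 and Hbb-bt in none. Of 4 fibroblast or epithelium markers, Col1a1 had one in all libraries at 14.0, and Col1a2, Epcam and Krt8 had none. In bulk ATAC-seq a weak OCR in all cells and a strong OCR in few cells cannot be told apart, and an OCR is not a measure of transcription.

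The sequence of the Nfkbia promoter, from RefSeq (GRCm38.p6), is shown first because it is one of the most intense OCRs of the NF-kappaB group and holds a match to the NF-kappaB motif. Nfkbia encodes the inhibitor that holds NF-kappaB in the cytosol and is a textbook target of NF-kappaB. The stretch is the 250 bases before the start site, chr12:55492648-55492897 on the minus strand of GRCm38.p6, printed 5′ to 3′ with the motif match in capitals, 29 bases before the start. Here and in the stretches of 250 and 201 bases shown for other genes, the capitals mark every searched motif except the GC box, which is left in lower case.
Nfkbia promoter: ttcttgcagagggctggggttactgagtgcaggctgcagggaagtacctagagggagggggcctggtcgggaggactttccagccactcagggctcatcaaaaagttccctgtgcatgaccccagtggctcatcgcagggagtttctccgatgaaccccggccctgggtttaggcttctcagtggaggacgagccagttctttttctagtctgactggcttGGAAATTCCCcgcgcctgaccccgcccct
Nfkbia had a promoter OCR in every library, with a mean fold enrichment of 119 ± 33.1 (SD, n = 7) and a summit 38 bp before the 5′ end, inside this stretch. In the order HPC7-1, -2, -4, -5, -6, -7 and -8, its intensity was 155, 116, 165, 124, 70.2, 92.5 and 112. Relative to the median promoter OCR of the same library, it ranged from 1.28 in HPC7-6 to 2.102 in HPC7-4, above that median in every library.

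Among the 46 members, 37 (80.4%) had a promoter OCR in all 7 libraries, against 55.9% of all protein-coding genes. Another 3 had one in some libraries and 6 in none, where 38.2% of all genes had none. Per library, 38.9 ± 0.900 members (SD, n = 7) had a promoter OCR, between 38 and 40. Of all genes, 58.6 ± 1.24% had one per library (SD, n = 7), between 57.2% and 60.7%. Many of these OCRs were weak: the median of the members' mean intensities was 38.6, against 79.8 over the 12272 genes with a promoter OCR in all libraries (quartiles 45.6 and 122), and 12 of the 37 lay above the latter. In 24 of the 46 members the promoter OCR was among the most intense 25% of OCRs of every library, against 48.4% of all genes. The median of the mean intensities was 19.7 over the 6 toll-like receptors with a promoter OCR in all libraries, 17.0 over 8 genes of the inflammasome and NOD-like receptors, 27.5 over the 5 nucleic acid sensors, 53.1 over the 11 adaptors and kinases and 104 over the 7 genes of the NF-kappaB group. When the summit had to lie in the window, the median was 11.5 over 5 toll-like receptors, without Tlr12, and 18.4 over 7 genes of the inflammasome group, so the order of these groups turned. No toll-like receptor reached the median of all genes, while 5 of 7 in the NF-kappaB group did. These are counts over chosen genes and were not tested.

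**Figure D1:**
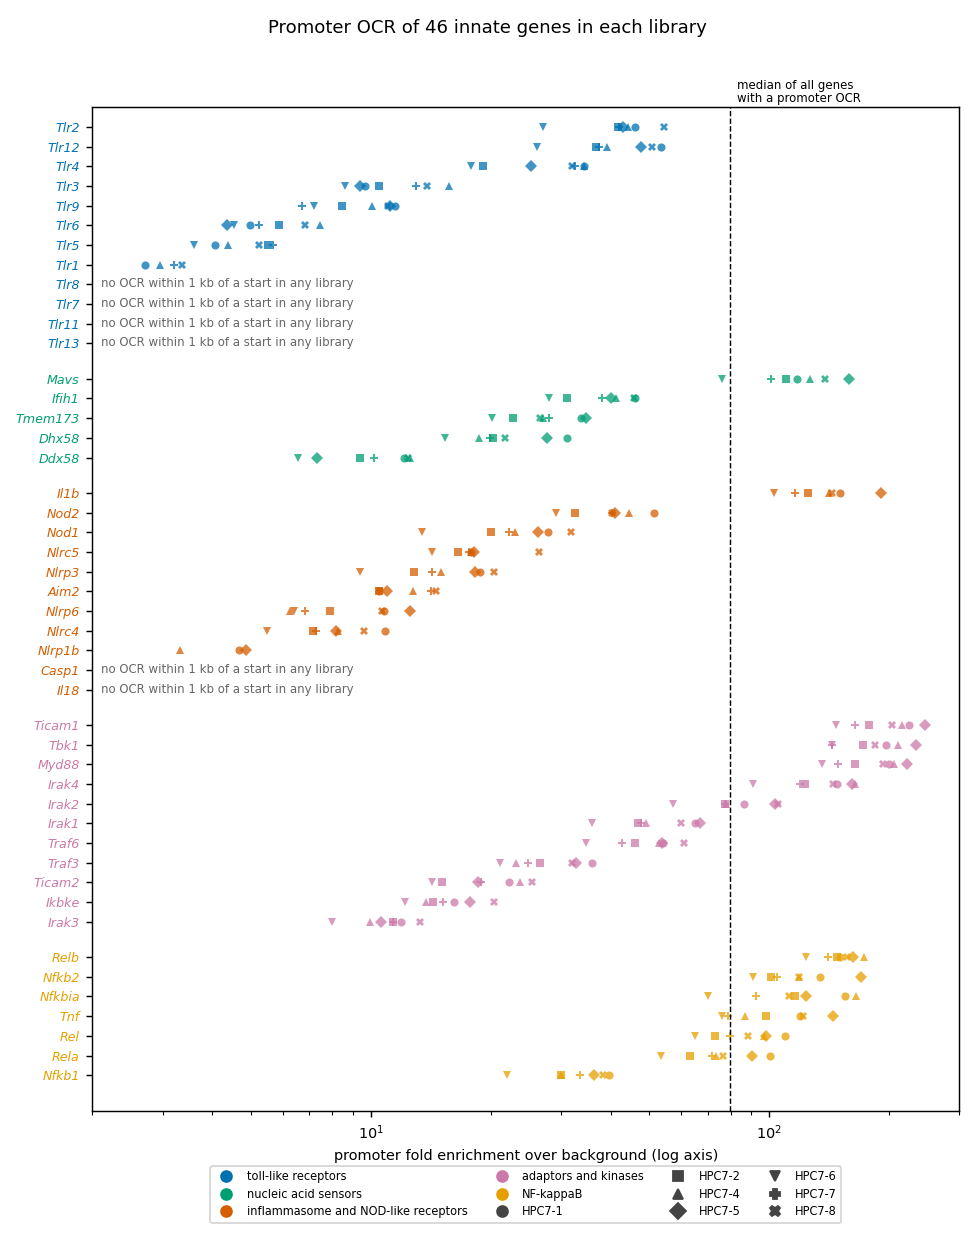
Fold enrichment of the strongest promoter OCR (log axis) of each of the 46 genes, with 1 symbol per library and 1 colour per gene group, and the median of all genes with a promoter OCR as a dashed line. All toll-like receptors lie left of the line, and Ticam1, Tbk1 and Myd88 lie farthest to the right, at means of 197, 183 and 181.

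**Figure D2:**
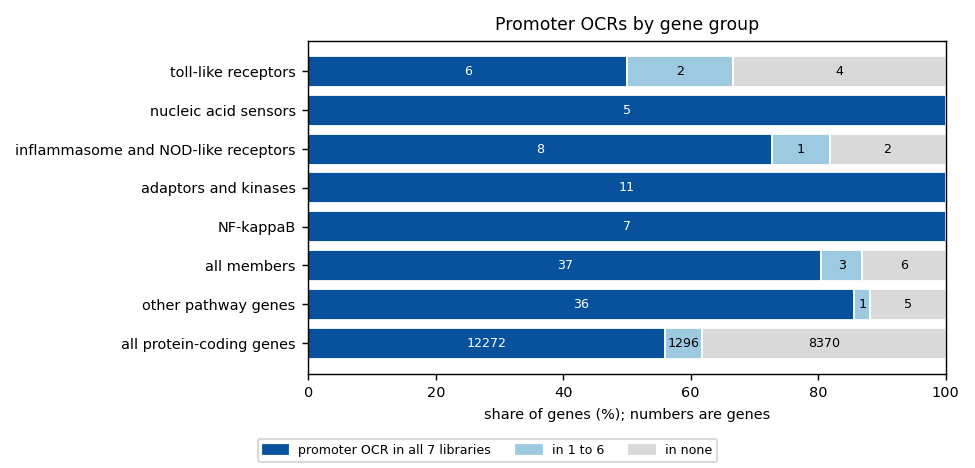
Percent of the genes in each group with a promoter OCR in all 7 libraries, in some and in none, beside all protein-coding genes. All nucleic acid sensors, adaptors and genes of the NF-kappaB group had a promoter OCR in every library, against 50% of the toll-like receptors and 55.9% of all genes.

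Of the 12 toll-like receptors, Tlr2, Tlr3, Tlr4, Tlr6, Tlr9 and Tlr12 had a promoter OCR in all libraries. Tlr2, the receptor of bacterial lipoproteins, was the most intense at 42.6 ± 8.11 (SD, n = 7). Its lowest value was 27.1 in HPC7-6, its median 43.0 and its highest 54.3 in HPC7-8. Tlr12, a rodent receptor of the profilin of protozoa, had 41.6 ± 9.57, from 26.1 in HPC7-6 through a median of 39.2 to 53.6 in HPC7-1, with the summit in an exon 1069 bp past the start, just outside the window. HPC7-6 was the lowest library in both genes, and the ranges of the 2 genes overlapped.

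Tlr4, the receptor of lipopolysaccharide, had a promoter OCR of 27.9 ± 7.13 (SD, n = 7). In the order HPC7-1, -2, -4, -5, -6, -7 and -8 its values were 34.2, 19.1, 34.2, 25.2, 17.8, 32.6 and 32.0, so HPC7-6 and HPC7-2 stood lowest. The promoter OCR of Tlr2 was 1.55-fold as intense as that of Tlr4, a log2 difference of 0.63 ± 0.28 that was positive in 7 of 7 libraries (two-sided exact permutation test by flipping the signs of the 7 differences, adjusted p = 0.0172 over 11 pairs of genes). With 7 libraries the smallest unadjusted p is 0.0156.

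The remaining toll-like receptors with a promoter OCR in all libraries were weaker. Tlr3, an endosomal receptor of double-stranded RNA, had 11.5 ± 2.67, Tlr9, the receptor of unmethylated CpG DNA, had 9.45 ± 1.99, and Tlr6, a partner of Tlr2, had 5.61 ± 1.18 (SD, n = 7 each). Tlr1, the other partner of Tlr2, had a promoter OCR in 4 libraries, at 2.71, 2.96, 3.20 and 3.35 in HPC7-1, -4, -7 and -8, and no other OCR within 10 kb. In the 4 libraries with both, Tlr6 exceeded Tlr1 in 4 of 4, by 1.98-fold on average (log2 difference of Tlr1 against Tlr6 of -0.99 ± 0.27). The smallest p that an exact permutation test can give with 4 libraries is 0.125, so no test is given of this pair.

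Tlr5, the receptor of flagellin, had a promoter OCR in 6 libraries, at 4.07, 5.51, 4.38, 3.598, 5.68 and 5.24 in HPC7-1, -2, -4, -6, -7 and -8. Its median summit lay at -1309.5 bp from the nearest start, outside the window, and only the edge of the OCR reached in. In HPC7-5 the OCR at the same place, at 3.31, did not reach into the window of 1 kb. No library showed an OCR at a start of Tlr7 or Tlr8, neighbouring X-linked receptors of single-stranded RNA, or of Tlr11 and Tlr13, so the pair of Tlr7 and Tlr8 was not tested. An absent OCR means only that no peak past the calling threshold reached into the window.

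All 5 nucleic acid sensors and adaptors had a promoter OCR in every library. Mavs, the mitochondrial adaptor of the RNA helicases, was the most intense at 118 ± 26.6 (SD, n = 7), from 76.2 in HPC7-6 through a median of 117 to 159 in HPC7-5. Ifih1 (MDA5), which binds long double-stranded RNA, had 38.6 ± 6.89, with 28.0 in HPC7-6, a median of 40.0 and 46.04 in HPC7-1. Tmem173 (STING), the adaptor of cytosolic DNA sensing, had 27.5 ± 5.25, and Dhx58 (LGP2), a helicase that modulates the other helicases, had 22.1 ± 5.43. Ddx58 (RIG-I), which binds short RNA with a triphosphate end, was the weakest at 10.1 ± 2.45. The promoter OCR of Ifih1 exceeded that of Ddx58 by 3.88-fold (log2 difference 1.96 ± 0.25), and that of Mavs exceeded that of Tmem173 by 4.26-fold (2.09 ± 0.23). Both differences were positive in 7 of 7 libraries (two-sided exact permutation test, adjusted p = 0.0172).

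In the inflammasome and NOD-like receptor group, 8 of 11 genes had a promoter OCR in all libraries. Nod2 and Nod1, sensors of bacterial peptidoglycan fragments, had 39.8 ± 7.36 and 23.5 ± 5.90 (SD, n = 7). Nod2 ranged from 29.1 in HPC7-6 through a median of 40.2 to 51.4 in HPC7-1, and it was above Nod1 in 7 of 7 libraries, by 1.72-fold (log2 difference of Nod1 against Nod2 of -0.78 ± 0.25, two-sided exact permutation test, adjusted p = 0.0172). Nlrc5, a regulator of MHC class I genes, had 18.4 ± 3.77, and Nlrp3, Nlrp6 and Nlrc4, which assemble inflammasomes, had 15.6 ± 3.84, 8.77 ± 2.52 and 8.12 ± 1.75. With a window of 3 kb the mean of Nlrc4 was 15.95.

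Aim2, a sensor of cytosolic DNA, had a promoter OCR of 11.98 ± 1.81 (SD, n = 7), inside the gene, with its summit 106 kb from the 5′ end and 1032 bp past the nearest annotated start. At the 5′ end itself an OCR was listed in 5 libraries, with values from 2.34 to 3.79. Nlrp3 was above Aim2 in 6 of 7 libraries (log2 difference 0.35 ± 0.36, two-sided exact permutation test, adjusted p = 0.0469). Without any 1 library other than HPC7-6 the difference did not pass the threshold of 0.05 (same test, adjusted p between 0.0625 and 0.0938). In HPC7-6 Nlrp3 was below Aim2, and with that library kept, 6 libraries cannot give a p under 0.05. The log2 difference lay between 0.27 and 0.41 in these runs. With a window of 500 bp, with the summit required in the window or with only the 5′ end of the gene, Aim2 lacked a promoter OCR in some libraries, and no test of the pair is given for these settings. Nlrp1b had a promoter OCR in 3 libraries, at 4.68, 3.31 and 4.87 in HPC7-1, -4 and -5. Casp1, the inflammasome protease, and Il18 had none in any library, and Casp1 had no other OCR within 10 kb of it either.

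The strongest OCR assigned to Il1b, the cytokine interleukin-1β, was not at its 5′ end. It had a mean fold enrichment of 138 ± 28.4 (SD, n = 7), with 102 in HPC7-6, a median of 141 and 190 in HPC7-5, and covered chr2:129366225-129369128 (mm10), in an intron 2852 bp into the gene and beside the starts of a shorter processed transcript of Il1b and of the gene Il1bos. At the 5′ end an OCR was listed in 3 libraries only, at 4.16, 3.20 and 3.20 in HPC7-1, -7 and -8. Both sequences are shown because the open and the little open region of the gene lie so close. The first is the 250 bases before the RefSeq start, chr2:129371140-129371389, with a match to the IRF letters AANNGAAA in capitals 72 bases before the start. The second is the 201 bases around the summit of the intronic OCR, chr2:129368187-129368387, with 1 match to the RUNX letters TGTGGT and a match to the GATA motif on each strand in capitals. Both are read 5′ to 3′ on the minus strand of GRCm38.p6.
Il1b promoter: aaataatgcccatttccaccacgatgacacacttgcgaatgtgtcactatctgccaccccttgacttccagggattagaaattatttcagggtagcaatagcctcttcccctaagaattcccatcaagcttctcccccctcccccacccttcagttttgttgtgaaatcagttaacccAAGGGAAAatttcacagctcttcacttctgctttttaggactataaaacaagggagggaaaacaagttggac
Il1b intronic OCR: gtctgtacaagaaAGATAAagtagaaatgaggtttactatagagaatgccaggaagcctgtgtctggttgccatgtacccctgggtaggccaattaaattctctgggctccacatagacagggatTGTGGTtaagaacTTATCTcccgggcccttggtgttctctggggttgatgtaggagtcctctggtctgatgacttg
No test is given of Il1b against Il18, since Il18 had no promoter OCR in any library.

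All 11 adaptors and kinases had a promoter OCR in every library. Ticam1 (TRIF), the adaptor of Tlr3, had the most intense promoter OCR of all members, at 197 ± 35.2 (SD, n = 7), with 147 in HPC7-6, a median of 203 and 246 in HPC7-5. Myd88, the adaptor of most toll-like receptors, had 181 ± 32.1, and its window also holds the start of Acaa1a. Ticam1 was above Myd88 in 7 of 7 libraries, by 1.09-fold on average, a log2 difference of Myd88 against Ticam1 of -0.12 ± 0.04 (two-sided exact permutation test, adjusted p = 0.0172). Ticam2 (TRAM), which bridges Tlr4 to Ticam1, had 19.7 ± 4.22.
The 201 bases around the summit of the Ticam1 promoter OCR, chr17:56276788-56276988 on the minus strand of GRCm38.p6, are shown as the most intense promoter OCR of the members, with a match to the GATA letters AGATAA in capitals.
Ticam1 promoter OCR: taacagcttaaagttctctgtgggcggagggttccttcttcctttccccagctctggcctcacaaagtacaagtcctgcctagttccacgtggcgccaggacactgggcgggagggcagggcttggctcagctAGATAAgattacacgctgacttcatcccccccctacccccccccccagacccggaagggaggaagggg

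Tbk1, the kinase that activates Irf3, also had its strongest assigned OCR inside the gene. It reached 183 ± 33.4 (SD, n = 7), from 144 in HPC7-6 through a median of 185 to 233 in HPC7-5, and covered chr10:121568437-121570222, in an intron 17.5 kb into the gene and beside the start of a transcript with a retained intron. The OCR at the 5′ end of Tbk1 had a mean fold enrichment of 63.6 ± 8.83, between 49.6 in HPC7-6 and 75.4 in HPC7-8. For the related kinase Ikbke the value was 15.7 ± 2.73 at an internal start and 4.26 ± 0.785 at the 5′ end. Tbk1 exceeded Ikbke by 11.7-fold over all starts (log2 difference 3.55 ± 0.26, 7 of 7 libraries, two-sided exact permutation test, adjusted p = 0.0172), and by a log2 difference of 3.91 at the 5′ ends alone. The 201 bases around the intronic summit, chr10:121569186-121569386 on the minus strand of GRCm38.p6, hold a match to the AP-1 letters TGANTCA and 1 to the RUNX letters, in capitals.
Tbk1 intronic OCR: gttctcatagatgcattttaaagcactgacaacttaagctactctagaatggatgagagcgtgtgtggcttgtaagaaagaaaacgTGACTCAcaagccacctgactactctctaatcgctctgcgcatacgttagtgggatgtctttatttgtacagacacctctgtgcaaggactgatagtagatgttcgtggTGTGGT

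The kinases that act just below Myd88 differed widely. Irak4 had 136 ± 26.2, in a window shared with the start of Pus7l, Irak2 had 83.5 ± 16.5, Irak1 had 53.1 ± 11.3, and Irak3, an inhibitor of the pathway, had 10.9 ± 1.66, in a window shared with Tmbim4 (SD, n = 7 each). With a window of 3 kb the mean of Irak2 was 127.6 and that of Irak3 23.01. Irak4 was 2.57-fold above Irak1 (log2 difference of Irak1 against Irak4 of -1.36 ± 0.18, 7 of 7 libraries, two-sided exact permutation test, adjusted p = 0.0172). The ubiquitin ligases Traf6 and Traf3 had 49.3 ± 8.80 and 28.1 ± 5.54.

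In the NF-kappaB group, the promoter OCR of Relb was the most intense at 151 ± 15.9 (SD, n = 7), with 123 in HPC7-6, a median of 150 and 173 in HPC7-4. Nfkb2, whose product p52 pairs with Relb in the non-canonical pathway, had 120 ± 26.1, with 91.2 in HPC7-6, a median of 118 and 169 in HPC7-5. The subunits of the canonical pathway were lower, with 87.3 ± 15.6 at Rel, 75.7 ± 15.9 at Rela and 32.8 ± 6.10 at Nfkb1. Rel exceeded Rela by 1.16-fold, with the same sign in 7 of 7 libraries (log2 difference of Rela against Rel of -0.21 ± 0.10, two-sided exact permutation test, adjusted p = 0.0172). For Tnf, an inflammatory cytokine and NF-kappaB target, the OCR had 104 ± 25.6, but it was 2691 bp wide on average and its summit lay in an intron 1364 bp past the 5′ end.

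Across the 37 members with a promoter OCR in all libraries, the summit lay within 250 bp of the gene's 5′ end in 25. In 6 it lay over 1 kb from every start of a protein-coding transcript, namely in Tlr12, Aim2, Il1b, Tbk1, Ikbke and Tnf. No share of all genes is given for these summit positions, so the counts are not read as particular to the members. With the 5′ end of each gene as its only start, 35 members had a promoter OCR in all libraries, against 51.6% of all genes. Spread between libraries, as the SD of the log2 intensity relative to the library's median promoter OCR, had a median of 0.15 over the members and 0.13 over all genes. Of the 12 pairs of genes listed, 9 had a promoter OCR of both genes in all libraries and these 9 passed the threshold, with sizes from 1.09-fold to 11.7-fold. Their p-values were adjusted over 11 pairs, which include 2 with filled values for an absent OCR, and over the 9 alone the adjusted p lay between 0.0176 and 0.0469 (exact permutation test).

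Other OCRs were counted at the same genes. In the gene bodies and the 10 kb on either side, 138 other OCRs were found in all 7 libraries, in 39 of 46 members, against 68.9% of all genes with at least 1. The median was 2 per member, as it was 2 per gene over all genes. They counted 59 in introns, 5 in exons, 46 downstream and 28 upstream, and 18 lay at the start of another protein-coding gene. Their mean intensity had a median of 13.2 and reached from 3.18 to 238. Nfkb1 had the most, 12, followed by Ifih1 with 9 and Irak3 with 8.

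The promoter OCR was compared with the strongest other OCR of the same gene, library by library, over all 11176 genes with both in all libraries. Of the 33 members tested, the promoter OCR was higher in 16, against 63.5% of all genes, and the other OCR was higher in 16, against 28.0% of all genes (exact permutation test over 7 libraries, adjusted p under 0.05 over all genes). Nod1 passed in neither direction (promoter OCR higher in 4 of 7 libraries, exact permutation test, adjusted p = 0.292). By group, the other OCR was higher in 4 of 4 toll-like receptors, 4 of 5 nucleic acid sensors, 4 of 8 genes of the inflammasome group, 3 of 10 adaptors and 1 of 6 in the NF-kappaB group.

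**Figure D3:**
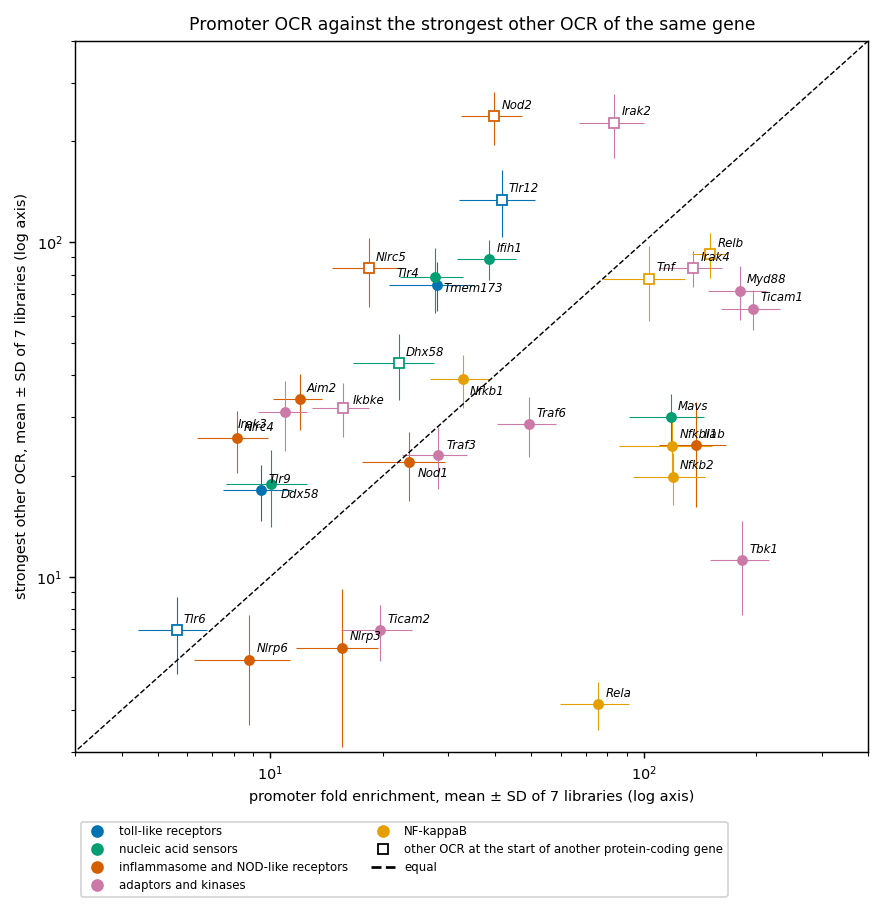
Mean fold enrichment of the promoter OCR against that of the strongest other OCR of each member with both in all libraries (log axes, bars are the SD over 7 libraries), with the line of equality. Nod2 and Nlrc5 lie farthest from the line on the side of the other OCR, at 5.98-fold and 4.51-fold, and Rela and Tbk1 on the side of the promoter, at 18.03-fold and 16.9-fold.

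For 7 members the stronger OCR sat at the start of a neighbouring protein-coding gene. That of Nod2, at the start of Cyld, had 238 ± 42.4 (SD, n = 7), from 180 through a median of 250 to 301, and exceeded the promoter OCR by 5.98-fold. At Irak2 it was the start of Tatdn2, with 228 ± 49.3, from 158 through 245 to 304, 2.72-fold the promoter OCR. With a promoter window of 3 kb, the difference at Irak2 no longer passed the threshold (log2 difference -0.30, exact permutation test, adjusted p = 0.62). Tlr12 had 134 ± 30.8 at the start of Zscan20, from 101 through 129 to 185, a 3.23-fold excess. In each of these genes the lowest value of the other OCR was above the highest value of the promoter OCR. Nlrc5 had 83.6 ± 19.5 at the start of Cpne2, from 51.9 through 84.0 to 109, a 4.51-fold excess. Dhx58 had 43.5 ± 9.65 at the starts of Hspb9 and Kat2a, from 31.1 through 41.1 to 57.7, and Ikbke had 32.0 ± 5.89 at the start of Rassf5, from 22.7 through 34.4 to 40.2. For all of these HPC7-6 gave the lowest value. At Tlr6, near the start of Fam114a1, the difference was small, with 6.91 ± 1.78 against 5.61 at the promoter, from 4.54 through 6.61 to 10.2. The other OCR of Tlr6 was higher in 6 libraries and equal in HPC7-6 (adjusted p = 0.0341 by the exact permutation test). Without any 1 library other than HPC7-6 it did not pass (adjusted p between 0.0674 and 0.0678, same test). With that tie kept, 6 libraries cannot give a p under 0.05, so this loss says nothing about the difference. Without peaks within 1 kb of another gene's start, the promoter OCR was the higher in Tlr12, Dhx58 and Irak2, and Tlr6 and Ikbke could not be tested. Nod2 also held intronic OCRs with mean intensities of 111, 62.8 and 50.9, all above the mean of its promoter OCR.

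At 9 members the stronger OCR was away from the start of any other protein-coding gene. Tlr4 had one in an intron of its longest transcript, 100 kb from the 5′ end, with 74.6 ± 12.4 (SD, n = 7), from 59.1 through a median of 78.8 to 90.6, which was 2.73-fold its promoter OCR. The intronic OCR of Ifih1, 27.2 kb into the gene, had 89.2 ± 12.2, from 78.2 through 86.0 to 112, 2.33-fold its promoter OCR. In both genes the lowest of the 7 values of the other OCR lay above the highest value of the promoter OCR. Tmem173 had 78.6 ± 17.4 downstream of the gene, from 51.5 through 79.5 to 99.9, 2.84-fold its promoter OCR, again with no overlap. Aim2 had 33.9 ± 6.46 in an intron 58.4 kb from the 5′ end, from 22.1 through 36.4 to 40.0. The RefSeq start of Aim2 lies 69725 bp past that end, so this OCR is upstream of the RefSeq start. Nlrc4 had 25.9 ± 5.46 in an intron 18.5 kb from its 5′ end, from 19.1 through 23.8 to 35.5. These exceeded the promoter OCR by 2.81-fold and 3.20-fold. Irak3 had 31.1 ± 7.37 at its strongest other OCR, from 19.9 through 31.1 to 40.6, and further intronic OCRs with means of 25.9, 23.0 and 20.98. Ddx58 had 19.0 ± 4.89 in an intron 6.48 kb from the 5′ end, from 11.7 through 18.9 to 26.6, a range that began below the highest promoter value of 12.5. Tlr9 had 18.2 ± 3.47 downstream, from 13.1 through 18.7 to 23.1. The smallest excess of these was at Nfkb1, with 39.0 ± 7.14 in an intron 54.96 kb from its 5′ end, from 25.8 through 37.7 to 48.6, 1.19-fold its promoter OCR and with overlapping ranges.

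Where the strongest other OCR of these genes lay in an intron, the 201 bases around its summit are given from the GRCm38.p6 genome. It exceeded the gene's promoter OCR, as weaker other OCRs also did in mean intensity at some of these loci. Each stretch is read 5′ to 3′ on the strand of the gene, with motif matches in capitals. That of Irak3 is left out because its summits did not all lie within 100 bp of their median. The others are chr4:66927692-66927892 (plus strand) for Tlr4, chr2:62618986-62619186 (minus) for Ifih1, chr4:40233245-40233445 (minus) for Ddx58, chr1:173409133-173409333 (plus) for Aim2, chr17:74440570-74440770 (minus) for Nlrc4 and chr3:135636484-135636684 (minus) for Nfkb1. The capitals mark AP-1 letters (TGANTCA) in Ddx58 and Aim2, PU.1 letters (GAGGAAGT) in Nlrc4 and GATA letters (AGATAA) in Nfkb1, while those of Tlr4 and Ifih1 hold none of the 8 motifs searched.
Tlr4 intronic OCR: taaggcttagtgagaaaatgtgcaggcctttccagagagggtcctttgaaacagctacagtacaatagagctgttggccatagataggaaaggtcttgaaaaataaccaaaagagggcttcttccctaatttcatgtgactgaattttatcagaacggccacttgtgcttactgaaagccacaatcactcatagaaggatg
Ifih1 intronic OCR: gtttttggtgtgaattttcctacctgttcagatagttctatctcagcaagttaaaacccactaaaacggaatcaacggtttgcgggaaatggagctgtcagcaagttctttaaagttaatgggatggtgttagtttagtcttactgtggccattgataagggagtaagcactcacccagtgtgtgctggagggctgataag
Ddx58 intronic OCR: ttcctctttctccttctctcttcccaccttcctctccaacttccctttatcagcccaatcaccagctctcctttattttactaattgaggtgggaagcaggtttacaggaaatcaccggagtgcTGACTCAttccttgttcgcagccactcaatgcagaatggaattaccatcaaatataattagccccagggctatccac
Aim2 intronic OCR: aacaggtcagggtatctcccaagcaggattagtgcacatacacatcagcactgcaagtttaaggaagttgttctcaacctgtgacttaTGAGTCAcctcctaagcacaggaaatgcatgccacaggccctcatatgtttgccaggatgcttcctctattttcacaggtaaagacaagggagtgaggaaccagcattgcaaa
Nlrc4 intronic OCR: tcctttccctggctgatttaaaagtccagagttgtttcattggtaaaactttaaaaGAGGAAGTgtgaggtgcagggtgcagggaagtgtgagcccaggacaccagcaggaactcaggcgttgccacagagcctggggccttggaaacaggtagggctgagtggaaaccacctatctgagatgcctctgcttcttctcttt
Nfkb1 intronic OCR: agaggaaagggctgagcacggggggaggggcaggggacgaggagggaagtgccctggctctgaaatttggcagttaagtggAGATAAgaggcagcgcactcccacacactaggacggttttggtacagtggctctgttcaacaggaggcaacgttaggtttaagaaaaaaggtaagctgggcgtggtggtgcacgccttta

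**Figure D4:**
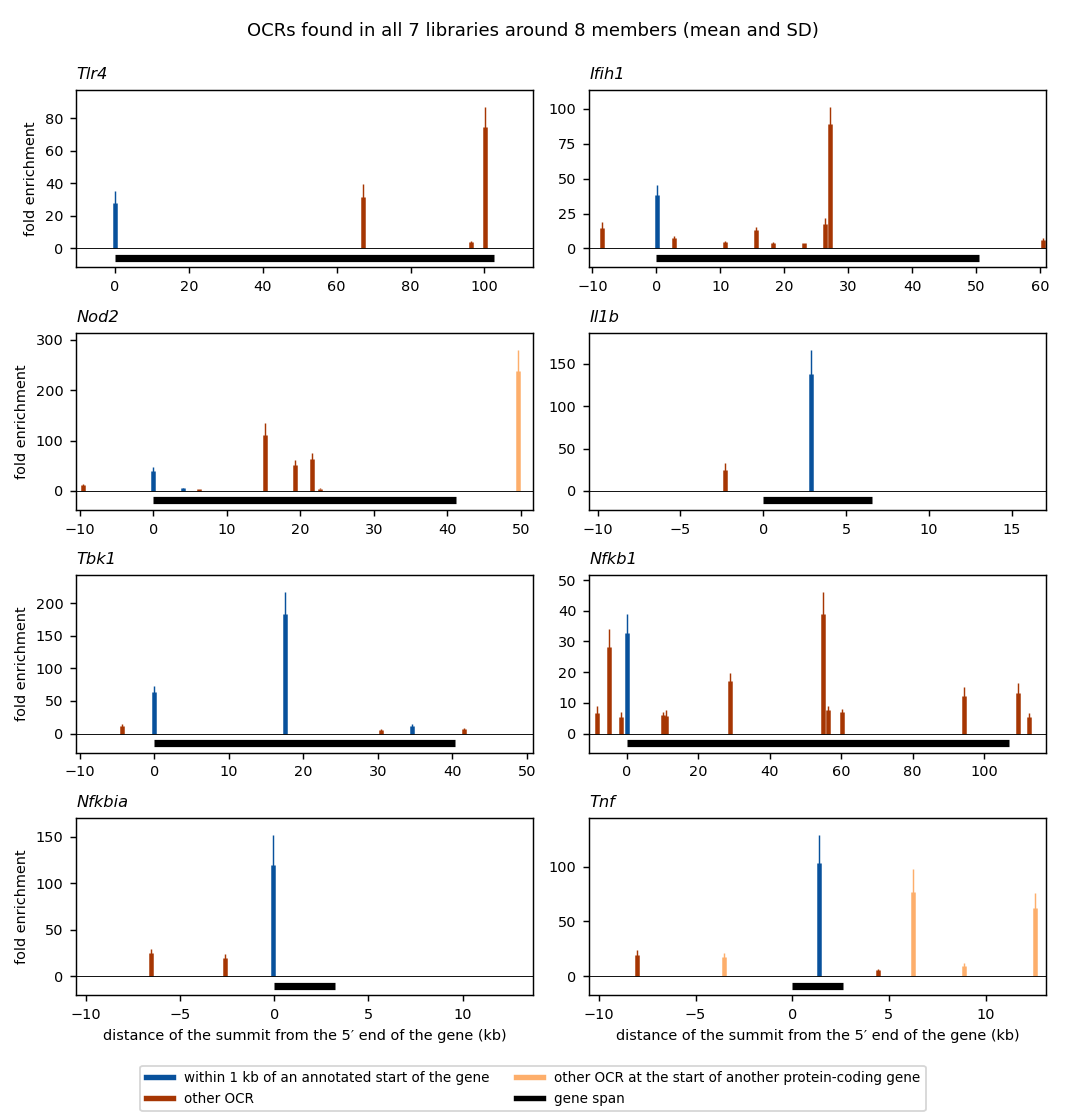
OCRs found at selected members, drawn by their distance from the gene's 5′ end in kb (transcription to the right) with the mean fold enrichment as height. The intronic OCRs of Tlr4, 100 kb from the 5′ end, and of Ifih1, 27.2 kb from it, stand above the promoter OCRs of these genes.

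The largest excess of the promoter OCR was in Rela, at 18.03-fold its strongest other OCR, and in Tbk1, at 16.9-fold. With Tbk1 measured at its 5′ end, the intronic OCR became the stronger and the difference reversed. Promoter OCRs also exceeded the strongest other OCR by 5.97-fold in Nfkb2, 5.77-fold in Il1b (at the intronic OCR), 4.75-fold in Nfkbia and 3.91-fold in Mavs. The excess was 3.09-fold in Ticam1, 2.84-fold in Ticam2, 2.73-fold in Nlrp3 and 2.54-fold in Myd88. Each of these held in 7 of 7 libraries (exact permutation test, adjusted p = 0.0176). Excesses were smaller in Traf6 (1.73-fold), Relb (1.64-fold), Irak4 (1.60-fold), Nlrp6 (1.59-fold), Tnf (1.34-fold) and Traf3 (1.21-fold).

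Members without a promoter OCR in all libraries still had OCRs nearby. Tlr5 had 63.7 ± 13.8 (SD, n = 7) at an OCR downstream of the gene. Tlr13 had 26.7 ± 5.50 upstream, Tlr7 had 16.1 ± 4.11 in an intron 11.6 kb from its 5′ end, Tlr11 had 7.92 ± 2.45, Tlr8 had 6.49 ± 1.14 and Il18 had 5.14 ± 1.13. Nlrp1b had 25.5 ± 4.70, at the start of its paralogue Nlrp1a. Tlr1 and Casp1 had none.

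RefSeq promoters of 300 bases (250 before to 50 after the start, GRCm38.p6) were matched to 38 members by symbol, and Tlr4, Tlr7, Dhx58, Tmem173, Nlrc5, Ticam2, Nfkb1 and Relb had no entry. The RefSeq start lay within 1 kb of the 5′ end used for the OCRs in 36 of the 38, and farther into the gene in Myd88 (1392 bp) and Aim2 (69725 bp). Promoter OCRs were more frequent at a higher ratio of the observed to the expected number of CpG dinucleotides in this sequence, in all genes and in the members. At a ratio of 0.6 and above, 84.3% of 8293 genes and 13 of 13 members had a promoter OCR in all libraries. From 0.35 to 0.6, the share was 52% of 2586 genes and 8 of 9 members. Under 0.35, it was 22.7% of 5631 genes and 9 of 16 members. The OCR counted could lie at any start of the gene, away from the RefSeq promoter. Its summit was 2852 bp from the 5′ end in Il1b, 9251 bp in Ikbke and 105641 bp in Aim2, all in the lowest class. In Tbk1, in the highest class, it was 17501 bp from the 5′ end. The promoter OCRs found in all libraries had median intensities, from high to low CpG, of 90.6, 67.7 and 34.4 over all genes. Over the members the medians were 75.7, 73.1 and 15.6. Members with few CpGs included Tlr1, Tlr5, Tlr8, Tlr9, Tlr11, Tlr12, Nlrp3, Nlrc4, Casp1 and Il18, and those with many included Tbk1, Myd88, Mavs, Ifih1, Rel, Rela and Nfkb2.

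**Figure D5:**
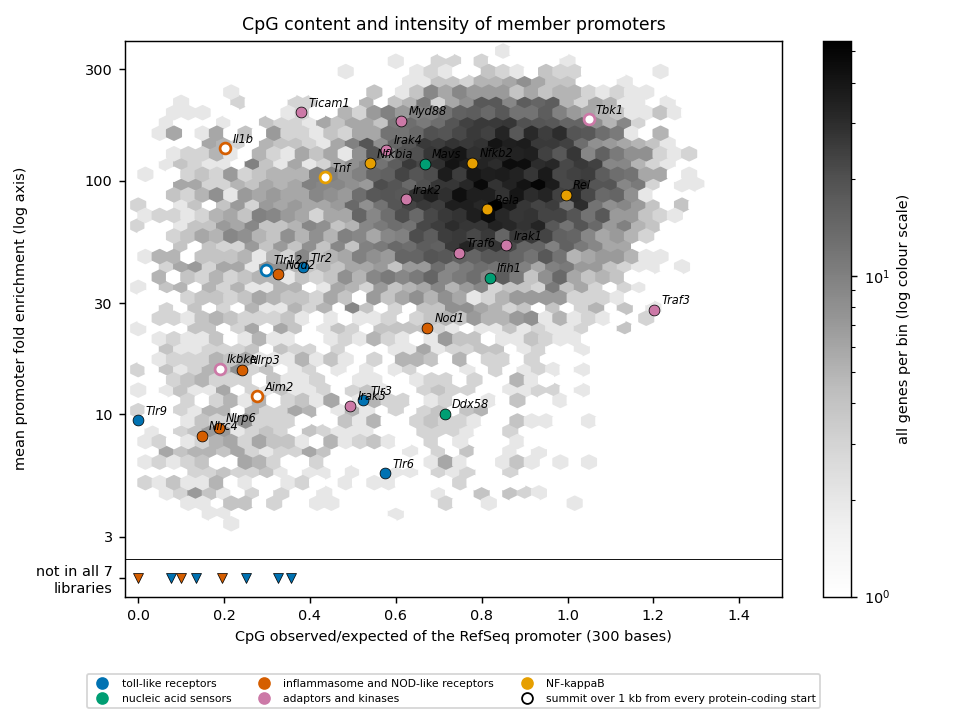
Mean fold enrichment of the promoter OCR (log axis) against the CpG observed over expected ratio of the RefSeq promoter, for members (coloured, open symbols where the summit lies over 1 kb from every protein-coding start) and for all genes. All 13 members at a ratio of 0.6 and above have a promoter OCR in every library, and Il1b stands out among those under 0.35 through its intronic OCR.

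Motif letters were searched on both strands of these promoters. The NF-kappaB motif was found in 8 of 38 members, Rel, Nfkb2, Nfkbia, Nlrp3, Traf3, Tlr2, Tlr3 and Irak1, and in 9.16% of all 16510 promoters. All 8 had a promoter OCR in all libraries, as did 30 of the 38 members and 65.5% of all promoters with the motif. For each gene 1 match is given in capitals, with up to 10 bases on either side, 5′ to 3′ in the direction of the gene. That of Nfkbia is marked in its promoter sequence above. Only matches wholly before the start are given, which leaves out 1 of Tlr2 that crosses its start. The matches shown for Tlr2, Nfkb2 and Rel overlap a further one shifted by 1 base, and Nfkb2 holds a separate one 11 bases before its start. They lie on GRCm38.p6 at chr11:23771042-23771071 (minus) for Rel, chr19:46304688-46304717 (plus) for Nfkb2, chr3:83841762-83841791 (minus) for Tlr2, chr8:45410572-45410601 (minus) for Tlr3, chr11:59541373-59541402 (plus) for Nlrp3, chrX:74023920-74023949 (minus) for Irak1 and chr12:111166350-111166369 (plus) for Traf3.
Rel NF-kappaB match: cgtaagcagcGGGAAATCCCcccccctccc
Nfkb2 NF-kappaB match: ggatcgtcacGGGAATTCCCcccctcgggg
Tlr2 NF-kappaB match: taggacacctGGGGAATTCCcacacggagc
Tlr3 NF-kappaB match: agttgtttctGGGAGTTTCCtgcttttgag
Nlrp3 NF-kappaB match: ggcttctgcaGGGAACCCCCgggaattctg
Irak1 NF-kappaB match: agggcggcgcGGGACGCCCCcgtgtggcgg
Traf3 NF-kappaB match: ggcggcccgcGGGGATTTCC
The promoter OCRs behind these matches ranged from 11.5 at Tlr3 to 120 at Nfkb2, so matches stood in weak and in intense OCRs.

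The IRF letters AANNGAAA were found in 13 of 38 members and in 22.1% of all promoters. They are shown for Ddx58, Myd88 and Tlr3, at chr4:40239867-40239894, chr9:119340039-119340066 and chr8:45410422-45410449 (all on the minus strand of GRCm38.p6), because they lie 59, 38 and 59 bases before the RefSeq start of sensors and an adaptor. That start lies 1392 bp past the 5′ end in Myd88 and 699 bp past it in Tlr3.
Ddx58 IRF match: ctaggttcagAAACGAAActggatcccc
Myd88 IRF match: gcttctcggaAAGCGAAAgaaggagggg
Tlr3 IRF match: agtgaatggcTTTCACTTtgtttagaca
The PU.1 letters GAGGAAGT were found in 7 of 38 members, Tlr1, Tlr9, Tlr11, Nlrp1b, Aim2, Rel and Traf3, and in 3.15% of all promoters. The GC box letters GGGCGG were found in 20 of 38 members and 48.3% of all promoters, and the ETS letters CCGGAAGT in 2 and 5.57%. With the letters named earlier, RUNX matched 8 members and 14.8% of all promoters, GATA 4 and 9.7%, and AP-1 3 and 7%. Within 100 bp of the promoter OCR summit, the NF-kappaB motif was found in 5 of 31 members and in 7.38% of 9073 such regions. The 5 were Tlr2, Irak1, Traf3, Nfkb1 and Nfkbia. GATA letters were found in 6 of 31, Tlr9, Nlrp3, Nlrp6, Il1b, Ticam1 and Ikbke, and in 3.52%. The other letters matched 3 (IRF), 4 (PU.1), 1 (ETS), 5 (RUNX), 4 (AP-1) and 17 (GC box) of these 31 members. Their shares of the regions, in that order, were 8.43%, 3.1%, 6.71%, 9.63%, 3.64% and 58%. Within 100 bp of the strongest other OCR summit, RUNX letters were found in 6 of 32 members and in 25.4% of 9349 regions. The NF-kappaB motif was found in 1, Nod2, and in 5.32%. At these summits the other letters matched 5 (IRF), 3 (PU.1), 0 (ETS), 4 (GATA), 5 (AP-1) and 9 (GC box) of the 32 members. Among the regions the shares, in that order, were 13.7%, 6.31%, 3.19%, 13.4%, 9.39% and 24.7%. A match is only a run of letters, and these shares were not tested.

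Of 42 further genes of the same pathways, listed as partners, regulators or targets, 36 (85.7%) had a promoter OCR in all libraries, against 55.9% of all protein-coding genes, 1 (Lbp) had one in 1 library and 5 had none. The highest means were 166 ± 38.3 at Traf2, an adaptor of TNF receptors, 148 ± 31.0 at Ripk2, the kinase below Nod1 and Nod2, and 138 ± 24.6 at Nfkbib, an inhibitor of NF-kappaB (SD, n = 7). Those without any were the receptor Nlrp12, the pore-forming protein Gsdmd, the protease Casp4 and the cytokines Il12b and Cxcl10. Their median intensity, 70.7, lay above that of the 37 members, 38.6. The DNA sensor Cgas, which acts above Tmem173, had 44.9 ± 8.93.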

How the data were processed

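The data are 7 lists of open chromatin regions (narrowPeak), 1 per HPC7 ATAC-seq library. Per the submitters' processing notes, the authors aligned reads with BWA and called peaks with MACS2 on the mm10 build, for each library on its own. Versions, transposase shift and duplicate handling are not given in the sources used here. The deposited lists hold a fold enrichment ratio at the summit, -log10 p-value and q-value columns and a score. Columns of other samples were 0, and the lists give no read depth, so the depth behind each value is unknown from these files. No coordinate lay outside the reference chromosomes.

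Members and gene lists were chosen with earlier results of these data known. Start sites were those of GENCODE M21 (all transcripts). Peaks were joined between libraries where they overlapped by 1 bp. Intensities were compared on the log2 scale by a two-sided exact sign-flip permutation test (128 sign patterns) with Benjamini-Hochberg adjustment, over the pairs or over all genes. Both values of a difference come from the same library, and p-values measure only the spread between these libraries. In pairs, an absent OCR was set to the lowest fold enrichment listed in that library; the 2 pairs this touched stayed in the adjustment, but their tests are not reported, a choice made after seeing the data. Named with their values are the 2 members of each group with the highest mean, those with a promoter OCR in some libraries, those without one, and those whose other OCR was higher in all libraries. The last part of this rule was applied by the test, so it includes Tlr6, which is tied in HPC7-6. CpG classes were divided at ratios of 0.35 and 0.6. Summit regions were used only where the summits of all libraries lay within 100 bp of their median, which left out 6 promoter OCRs and 8 strongest other OCRs of members. The search and the test were tested on simulated data: 0 of 500 genes differed from an exhaustive search. Of 2000 genes simulated for the sign-flip test, 200 had a difference, set larger than its spread between libraries. All 200 of these, and 67 of the others, had an unadjusted p under 0.05. Alternatives were other windows, starts, thresholds, flanks and peak numbers, and each library left out. Tools were Python 3.11.15, numpy 2.4.6, pandas 2.3.3, pysam 0.24.0, samtools 1.23.1 and matplotlib 3.10.9. The value of 1 marker gene is not reported here.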

Additional observations from a re-analysis of the deposited data

Results flagged for a closer look

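Among the 37 members with a promoter OCR in all libraries, 4 had 1 library far from the other 6 on the log2 scale when the intensity was divided by the median promoter OCR of the library (Dixon's test, critical value 0.568), a test that chance passes in about 1 of 20 genes. The ratio of Tlr9 was 0.0991 in HPC7-7, against 0.121 to 0.135 in the others. For Ddx58 it was 0.0794 in HPC7-5, against 0.119 to 0.16. Irak4 stood at 2.09 in HPC7-4, against 1.66 to 1.78, and Traf3 at 0.295 in HPC7-4, against 0.355 to 0.405. On the ratios themselves, without the log2 scale, 2 passed, Tlr9 and Irak4, and Ddx58 and Traf3 did not. The share of all genes that pass is not given here, so the count is not read as particular to the members.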

How the results depend on the processing

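No paired analysis was possible because the labels put all libraries in 1 group, so there were no groups to pair. Under the alternatives, 37 members with a promoter OCR in all libraries became 34 (summit in the window) to 40 (window of 3 kb). With only the 5′ end of each gene, an alternative added after seeing the data, the count was 35. The share of all genes moved too, to 53.7%, 60.8% and 51.6% in these settings, against 55.9% in the main one. Members with a promoter OCR per library, 38.9, became 37.86 with a window of 500 bp, 41.71 with 3 kb and 36.29 with the summit in the window. The 138 other OCRs became 65 in gene bodies only and 382 with 50 kb on either side. The 16 members with a higher other OCR became 9 of 21 tested in gene bodies only, with fewer members that could be tested. Without peaks within 1 kb of another gene's start, 11 of the 16 still passed and 2 could not be tested. No share of all genes is given for these settings. The log2 difference of promoter and other OCR reversed at Tlr12 (2.07), Dhx58 (0.66) and Irak2 (1.30) without peaks at other genes' starts, at Dhx58 (0.66), Irak2 (1.30) and Ikbke (0.66) in gene bodies only, and at Tbk1 (-1.52) with protein-coding starts or the 5′ end only. These alternatives change which OCR counts as the promoter or as the strongest other OCR. Leaving out 1 library gave between 37 and 38 members with a promoter OCR, 138 to 154 other OCRs, 10 to 11 pairs past the threshold (2 of them with filled values), 16 to 17 members with the promoter higher and 15 to 16 with the other OCR higher. The difference at Tlr6 did not pass without any 1 library other than HPC7-6 (exact permutation test, adjusted p 0.0674 to 0.0678). With Tlr6 tied in HPC7-6, no such run could give a p under 0.05. With a window of 3 kb, the log2 difference at Nod1 passed (0.94) and that at Irak2 did not (-0.30, exact permutation test, adjusted p = 0.62).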
